A study of Mus musculus with 12 samples.

Results

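Brains homozygous for 2 alleles of Rorb were compared directly, with the h2 allele in 3 libraries and the h1 allele in 3, out of 12 libraries in the series. The members were the samples whose genotype label is Rorbh2/h2 or Rorbh1/h1, and every gene of their expected counts entered the comparison. Each library came from the whole brain of a 6 week old mouse. The background strain was C57BL/6J for h1. For h2 it was B6(Cg)-Tyrc-2J/J, an albino relative of that strain with a mutated tyrosinase gene. Allele and background therefore cannot be told apart. The other 6 libraries, 3 wild type (WT) on C57BL/6J and 3 of Rorbh4/h4 on B6.129S7-Il1r1tm1Imx/J, served to estimate the spread between mice and as reference levels. The series counts 3 mice per genotype. The h1 titles share a single stem, as do the h2 titles, while the sources used here name no litters, no cages and no hour of collection.

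The product of Rorb is RORbeta, a nuclear receptor that binds DNA at the AGGTCA core of the ROR response element. REV-ERB receptors bind the same core as repressors, and both families sit in the feedback loops of the circadian clock. In the brain Rorb is known as a marker of layer 4 neurons of the neocortex, and it is also expressed in sensory thalamus, retina and spinal cord.

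The h1 libraries held 20310860, 21543294 and 24000838 expected counts, and the h2 libraries 14513825, 24694178 and 23562434, so that h2 replicate 1 was the shallowest of all 12. No pair of h1 or of h2 libraries held near-identical counts, as 1 library deposited under 2 names would (chi-square over its degrees of freedom, 2.61 to 4.41). Xist, the RNA of the inactive X chromosome, was at 786, 0.562 and 0.841 CPM in h1 and at 0.967, 904 and 0.844 CPM in h2. Ddx3y of the Y chromosome was near 0 in the libraries where Xist was high, so h1 and h2 each held 1 female and 2 male libraries. By the same markers WT held 3 female libraries and h4 held 2 female and 1 male, so the WT levels given below are those of females only. All 13 neuronal markers of a list from Snap25 to Gad2 were measured, none was called with edgeR or DESeq2 and 0 had an unadjusted edgeR p under 0.05, and their median log2 fold change was -0.02.

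Rorb itself (ENSMUSG00000036192, chromosome 19 at 18930605 to 19111196, minus strand, GRCm38) did not separate the alleles. Levels are in CPM, the expected count scaled to an adjusted library total. Rorb was at 23.3, 33.4 and 22.8 CPM in h1 and 31.1, 31.1 and 22.5 CPM in h2. The 2 ranges overlapped, with h1 replicate 2 the highest of the 6 libraries and h2 replicate 3 the lowest. The log2 fold change, always given as h2 minus h1, was 0.09 (SE 0.17, edgeR adjusted p = 0.951), and the 2-sided exact permutation p on CPM was 1, where 0.1 is the smallest that 3 against 3 libraries allow. With this spread a small difference in Rorb level was not detectable. The estimated transcript length of Rorb averaged 9154 bases in h1 and 9146 bases in h2 (exact permutation p = 1). These values cover the gene as a whole and not its exons, and the sources used here do not describe the sequence change of either allele. Tyr, the tyrosinase gene mutated in the h2 background (ENSMUSG00000004651, chromosome 7 at 87424771 to 87493512, minus strand), was at 0.840, 1.27 and 1.01 CPM in h1 and 1.24, 1.38 and 1.48 CPM in h2. It did not pass the test (log2 fold change 0.41, SE 0.26, adjusted p = 0.702; exact permutation p = 0.2), and a level of about 1 CPM gives it little precision.

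Small differences in many genes set the brains apart, more of them lower than higher in h2. Of 16493 genes tested, 119 were called at an edgeR adjusted p under 0.05, which is 0.722% of them. The called genes were higher in h2 for 31 (0.188%) and lower for 88 (0.534%). Their median fold was 1.30, with 8 genes over 2-fold and 26 over 1.5-fold. In all 119 the h2 and h1 libraries did not overlap, which held for 2549 of all genes tested (15.5%), and 1565 genes (9.49%) had an unadjusted p under 0.05. All h2 libraries lay below all h1 libraries in 1300 genes (7.88%) and above them in 1249 (7.57%). DESeq2, run on the same counts, called 29 genes higher (0.176%) and 138 lower (0.837%). The median log2 fold change of all genes was 0.00. Sgms1, which makes sphingomyelin in the Golgi, had the smallest adjusted p. It measured 47.5, 48.2 and 46.6 CPM in h1 and 33.98, 35.4 and 35.1 CPM in h2, against a WT mean of 45.5. Every h2 library lay below every h1 library, and Sgms1 fell by 0.44, a log2 value (SE 0.05, adjusted p = 0.000132).

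**Figure D1:**
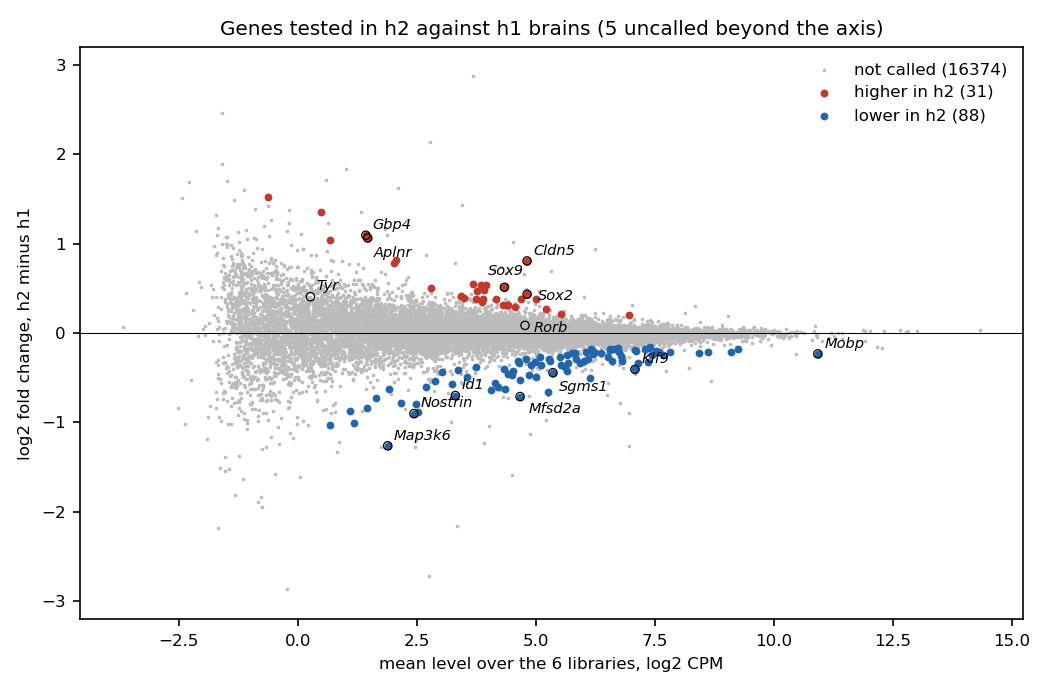
Log2 fold change of h2 minus h1 (y axis) against the mean level over the 6 libraries in log2 CPM (x axis), 1 point per gene tested. The 88 genes lower in h2 (blue) outnumber the 31 higher (red) and reach to higher levels, Rorb and Tyr lie among the 16374 genes not called (grey), and 5 uncalled genes are beyond the y axis.

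Among markers of the brain vasculature, some were higher and some lower in h2. Endothelial cells of the brain form the blood-brain barrier through tight junctions and through selective transporters. Cldn5, the main claudin of these tight junctions (chromosome 16 at 18776847 to 18778262), was at 22.4, 17.1 and 21.8 CPM in h1 and 40.6, 34.8 and 32.5 CPM in h2. All h2 libraries lay above all h1 libraries, with the WT mean of 30.3 CPM between them. Cldn5 rose by 0.81 on this scale (SE 0.10, adjusted p = 0.00107). Mfsd2a, the transporter that carries lysophosphatidylcholine lipids into the brain (chromosome 4 at 122946850 to 122961188), moved the other way. It was at 31.6, 34.4 and 29.04 CPM in h1 and 17.9, 20.04 and 19.8 CPM in h2, and it fell by 0.71 (SE 0.09, adjusted p = 0.000279). Every h1 library of Mfsd2a lay above every h2 library, with the WT mean of 25.1 CPM between.

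Of 16 endothelial markers measured, 2 rose, 1 fell and 13 did not pass the test with edgeR, where 0.188% of all genes rose and 0.534% fell. DESeq2 called 3 higher and 2 lower, against 0.176% and 0.837% of all genes. The median log2 fold change of the 16 was 0.09 against 0.00 for all genes. Cd93, a lectin-like surface protein of endothelium, was the other that rose, from 11.5 ± 1.43 CPM to 15.9 ± 0.918 CPM (SD, n = 3 each; log2 fold change 0.47, adjusted p = 0.0194). The glucose transporter gene Slc2a1 had 138, 193 and 154 CPM in h1 and 80.8, 83.7 and 96.6 CPM in h2. Its groups did not overlap. With edgeR it was uncalled (log2 fold change -0.89, SE 0.16, adjusted p = 0.0536), and with DESeq2 it was called lower (adjusted p = 1.11e-05). Kdr, the receptor for vascular endothelial growth factor, was likewise uncalled with edgeR at 0.68 (adjusted p = 0.0549) and called higher with DESeq2 (adjusted p = 7.99e-06), and its edgeR call appeared without h1 replicate 2 (adjusted p = 0.0126) or h1 replicate 3 (0.028). Slc2a1 and Kdr were chosen after their values were seen. In 7 of the 16 markers all h2 libraries lay above all h1 libraries, and in 3 below, against 7.57% and 7.88% of all genes. An unadjusted edgeR p was under 0.05 for 8 of the 16 (9.49% of all genes). Some other markers, also chosen after their values were seen, lay close to 0, with Pecam1 at 0.04, Flt1 at -0.03 and Abcb1a at -0.02. The summed level of the 16 markers, to which Slc2a1 adds the most, was 593 to 615 CPM in h1, 553 to 561 CPM in h2 and 577 to 600.1 CPM in WT. In whole brain, fewer cells of a type and less RNA per cell cannot be told apart.

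Further called genes, gathered here by their known roles in vessels and not from a list, lay on both sides. They were grouped after the calls were made and from called genes only, so they give no share of vascular genes called. Aplnr, the apelin receptor, was at 1.83, 1.73 and 1.81 CPM in h1 and 3.73, 2.97 and 4.56 CPM in h2, a rise of 1.06 (SE 0.19, adjusted p = 0.0038). The transcription factor gene Ets1 rose by 0.53 (adjusted p = 0.00117), and Pdgfrb, the receptor that marks pericytes, by 0.38 (adjusted p = 0.0252). Pdgfrb was the only called member among 12 pericyte and smooth muscle markers, whose median was 0.14. Heyl, a target of Notch signalling, rose by 0.51 (adjusted p = 0.0287) and Slc38a5, a glutamine transporter, by 0.78 (adjusted p = 0.00784). Slc40a1, the iron exporter ferroportin, rose by 0.54 (adjusted p = 0.0286) and was the only called gene of 11 for iron storage and transport.

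Those lower in h2 were led by Nostrin, an adaptor for the traffic of endothelial nitric oxide synthase. Nostrin was at 5.83, 8.67 and 6.89 CPM in h1 and 2.97, 4.31 and 3.92 CPM in h2, and it fell by 0.90 (SE 0.17, adjusted p = 0.00959). The lipid flippase gene Atp10a fell by 0.63 (adjusted p = 0.0206). The receptor gene Notch4 fell by 0.54 (adjusted p = 0.0124) and Slc7a5, the large neutral amino acid transporter, by 0.32 (adjusted p = 0.0152), both chosen after their values were seen. In the deposited TPM, which divide by an estimated length, Notch4 was at 4.26, 5.18 and 2.97 in h1 and 2.05, 4.38 and 3.66 in h2. These groups overlapped and the call was lost (limma adjusted p = 0.881). The estimated length of Notch4 ranged from 2960 to 5740 bases over the 6 libraries. Cldn5, Mfsd2a, Aplnr and Ets1 were called without any single h1 or h2 library. Nostrin lost its call without h1 replicate 2, at an adjusted p of 0.0611, or without h2 replicate 1, at 0.0562, and Slc38a5 without the same libraries (0.0867 and 0.051). Cd93, Pdgfrb, Heyl, Slc40a1, Atp10a and Slc7a5 each lost it in 4 or more of the 6 leave-outs, with adjusted p of at most 0.195, and Notch4 in 3.

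**Figure D2:**
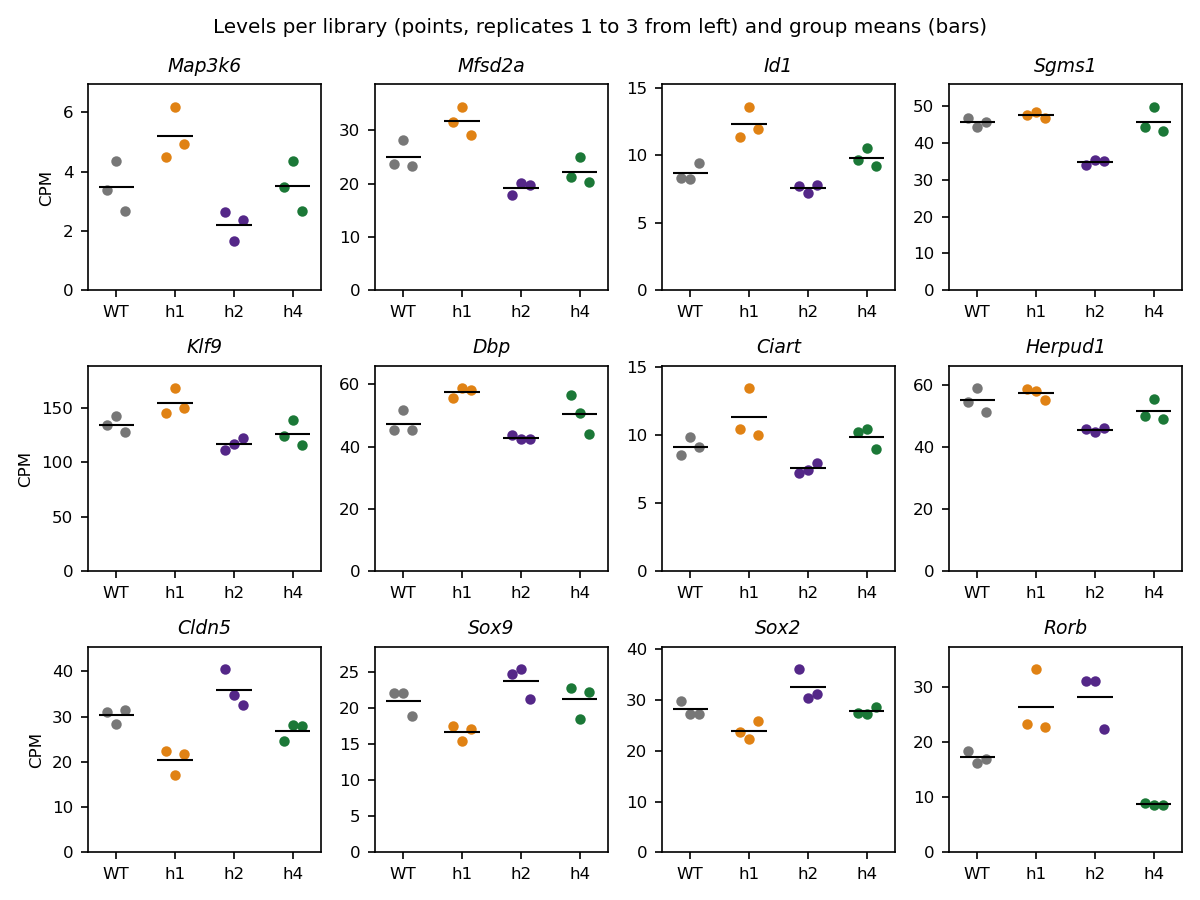
CPM (y axis, from 0) of 12 genes in each library of the 4 genotypes (x axis), with replicates 1 to 3 from left to right and a bar at the mean of each group. In 11 panels no h2 library reaches the range of h1, with Cldn5, Sox9 and Sox2 above it and the others below, whereas the h1 and h2 points of Rorb overlap.

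Several clock genes were lower in h2. Dbp, Tef and the related PAR-domain factors are output genes of the clock, Nr1d2 encodes REV-ERB beta, Per3 a period protein and Ciart a repressor of the CLOCK and BMAL1 complex. Of 22 clock genes measured, 5 fell, none rose and 17 did not pass with edgeR. DESeq2 called 6 lower and 1 higher, against 0.837% and 0.176% of all genes. The median of the 22 was -0.11, and 10 of them had all h2 libraries below all h1 libraries while 2 had them above, against 7.88% and 7.57% of all genes. The share that fell was 22.7% of the list, against 0.534% of all genes.

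Dbp (chromosome 7 at 45705088 to 45710203) was at 55.5, 58.96 and 58.1 CPM in h1 and 43.8, 42.4 and 42.4 CPM in h2. It fell by 0.43 (SE 0.07, adjusted p = 0.00401). The WT mean was 47.4 CPM, nearer to h2 than to h1. Ciart (chromosome 3 at 95878503 to 95882251) was at 10.4, 13.5 and 10.05 CPM in h1, highest in replicate 2, and at 7.25, 7.48 and 7.98 CPM in h2, and fell by 0.57 (SE 0.11, adjusted p = 0.007). Tef, the most abundant of the 5, went from 369.5 ± 22.5 CPM to 318 ± 6.22 CPM (SD, n = 3 each), a fall by 0.22 (adjusted p = 0.0083). Nr1d2 fell by 0.32 (adjusted p = 0.0174), from 183 ± 13.98 CPM to 146 ± 4.56 CPM (SD, n = 3 each). Per3, at 46.6, 54.5 and 48.8 CPM in h1 and 43.6, 41.4 and 40.3 CPM in h2, fell by 0.26 (adjusted p = 0.0252), and its gene overlaps Camta1 on the same strand. The Dbp gene overlaps Sphk2 on the opposite strand, as the Ciart gene does an antisense transcript, and the library kit does not mark the strand.

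Arntl, which encodes BMAL1 and runs in antiphase to Dbp and the Per genes, had the opposite sign. It was at 33.3, 28.6 and 29.04 CPM in h1 and 37.4, 37.6 and 36.9 CPM in h2. The groups did not overlap, with a log2 fold change of 0.30 that missed the threshold with edgeR (adjusted p = 0.0579) and passed it with DESeq2 (adjusted p = 0.0359), and it passed with edgeR without h1 replicate 1 (adjusted p = 0.027). Per2 was at 37.95, 35.7 and 34.9 CPM in h1 and 18.9, 23.8 and 23.2 CPM in h2, and was also uncalled with edgeR (-0.71, adjusted p = 0.0975) and called lower with DESeq2 (adjusted p = 0.00129). The core genes Clock (0.00), Cry1 (0.01) and Csnk1e (0.00) were at about 0, and so was Rora (-0.02), a relative of Rorb. Per3, Arntl, Per2 and the genes at about 0 were chosen after their values were seen. The fall of Dbp was called without any single library. Ciart and Tef lost it without h1 replicate 2 (adjusted p = 0.114 and 0.102) and Nr1d2 without h2 replicate 1 (0.0875). Per3 lost it without h1 replicate 2 (0.268), h2 replicate 2 (0.103) or h2 replicate 3 (0.111). The number of clock genes that fell went down to 2 without h1 replicate 2, and stayed between 4 and 6 without any other.

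The clock is known to act on its targets through short promoter elements, so the promoters of the genes that fell were read. Each promoter window holds 250 bases before and 50 bases after a RefSeq start in GRCm38.p6, and 89 of the 119 called genes had one. The palindromic E-box CACGTG, bound by CLOCK and BMAL1, is in a window of 8.09% of the 27025 genes with a RefSeq promoter. It was in a window of 8 of the 72 called genes lower in h2 that have a promoter (11.1%). Among the 18 clock genes with a promoter, called or not, 5 had it (27.8%), which were Bhlhe41, Ciart, Cry1, Per1 and Tef. Of the clock genes that fell, Ciart and Tef had it and Dbp, Nr1d2 and Per3 did not. The following stretches, 5′ to 3′ on the strand of the gene, have the motif in capitals.
Ciart, chr3:95882319-95882364, minus strand: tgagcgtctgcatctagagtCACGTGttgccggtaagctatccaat
Ciart, chr3:95882247-95882306, minus strand: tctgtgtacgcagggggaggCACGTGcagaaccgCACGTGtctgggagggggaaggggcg
Tef, chr15:81802526-81802571, plus strand: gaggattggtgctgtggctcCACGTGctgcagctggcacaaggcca
Tef, chr15:81811256-81811301, plus strand, at another start: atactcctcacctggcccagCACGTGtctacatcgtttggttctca
The core AGGTCA that ROR and REV-ERB receptors bind was searched on both strands. It was in a window of 13 of the 72 genes lower in h2 (18.1%), the same share as of all genes (18.1%), and of 5 of the 18 clock genes (27.8%), Arntl, Clock, Nfil3, Nr1d2 and Per1. A gene can have several windows. Counted per window, the core was in 15.2% of those of genes lower in h2, 18.5% of those of clock genes and 16.3% of all. The longer form TAGGTCA was in 2.97% of all genes, in none of the 72 and in 2 clock genes, Arntl and Nfil3. Nr1d2 and Herpud1, a gene of the endoplasmic reticulum described further on, are among the genes that fell with the core in a window.
Nr1d2, chr14:18239158-18239203, minus strand: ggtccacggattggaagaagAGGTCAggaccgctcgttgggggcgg
Herpud1, chr8:94386376-94386421, plus strand, core read on the other strand as TGACCT: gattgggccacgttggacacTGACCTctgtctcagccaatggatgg
The stretches were chosen for printing after the search, from genes that hold a motif. A match describes the letters only, and the windows reach no further than 250 bases before a start.

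Genes known to respond to glucocorticoids had a negative log2 fold change in every case, though few passed the test. The glucocorticoid receptor raises their transcription when corticosterone is high. All 17 genes measured lay below 0, with a median of -0.71, as did 8079 of all 16493 genes, whose median was 0.00. In 12 of the 17, all h2 libraries lay below all h1 libraries, against 7.88% of all genes. With edgeR 2 of them fell (0.534% of all genes did) and 15 did not pass, 14 had an unadjusted p under 0.05 (9.49% of all genes did), and DESeq2 called 11 lower (0.837% of all genes). Some members, Per1 among them, are also in the clock or immediate early lists.

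Map3k6, a kinase of the stress-activated MAP kinase cascade (chromosome 4 at 133240818 to 133252929), had the largest fall in counts among the called genes. It was at 4.50, 6.19 and 4.92 CPM in h1 and 2.62, 1.67 and 2.36 CPM in h2, and fell by 1.26 (SE 0.20, adjusted p = 0.00352). In the deposited TPM, which divide by an estimated length, Map3k6 was at 4.82, 5.18 and 5.74 in h1 and at 5.31, 2.35 and 3.78 in h2, so the groups overlapped and the call was lost (limma log2 fold change -0.47, adjusted p = 0.693). Its estimated length was 1955, 2422 and 1791 bases in h1 and 1111, 1548 and 1396 bases in h2. Klf9, a transcription factor gene on the chromosome of Rorb (chromosome 19 at 23141226 to 23168134), was at 146, 169 and 150.3 CPM in h1 and 111, 117 and 122 CPM in h2, and fell by 0.41 (SE 0.07, adjusted p = 0.0348).

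The uncalled members given here were chosen after their values were seen. Their log2 fold changes ran from -2.72 to -0.79, against -1.26 for Map3k6 and -0.41 for Klf9. Plin4, a coat protein of lipid droplets, was at 8.89, 20.997 and 5.42 CPM in h1 and 1.45, 2.36 and 1.39 CPM in h2 (log2 fold change -2.72, SE 0.80, adjusted p = 0.248). Its h1 libraries were far apart, and all lay above all h2 libraries. Sgk1, the serum and glucocorticoid regulated kinase, was at 181, 205 and 143 CPM in h1 and 47.99, 57.6 and 111 CPM in h2 (-1.26, adjusted p = 0.191), where h2 replicate 3 was the closest to h1. Fkbp5, a co-chaperone of the receptor, was at 39.4, 61.5 and 45.9 CPM in h1 and 24.6, 25.7 and 24.4 CPM in h2 (-0.97, adjusted p = 0.199). Tsc22d3, also known as GILZ, came nearest to the threshold (-0.79, adjusted p = 0.0549). Zbtb16 was at -1.13 (adjusted p = 0.332).

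Over the 17 genes, the mean deviation from the 6-library average on the log2 scale was 0.34, 0.67 and 0.20 in the h1 libraries and -0.54, -0.43 and -0.24 in the h2 libraries. The WT libraries stood at -0.21, 0.15 and -0.24, between the lowest h1 and the highest h2 library. The summed level of the list was 982 to 1255 CPM in h1, 624 to 783 CPM in h2 and 731 to 900.3 CPM in WT. The palindromic element with GAACA and TGTTC 3 bases apart, which the receptor binds, is in a promoter window of 0.0555% of all genes and of 1 of the 16 genes of the list with a window, Sgk1.
Sgk1, chr10:21993682-21993734, plus strand, element in capitals: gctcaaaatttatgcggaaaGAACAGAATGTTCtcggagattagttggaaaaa
This search was added after the values were seen. On counts, Map3k6 was called without any single library. Klf9 lost its call without h1 replicate 3 (adjusted p = 0.0647) or any h2 library (0.191, 0.147 and 0.0659).

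**Figure D3:**
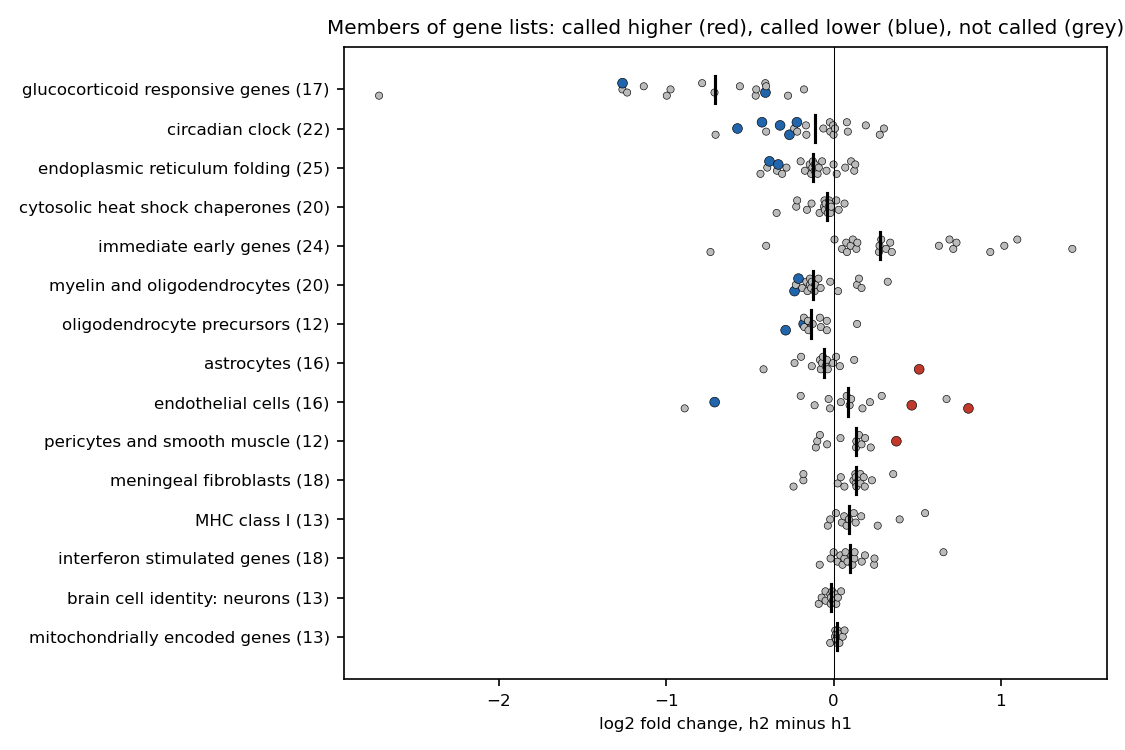
Log2 fold change of h2 minus h1 (x axis) for each measured member of 15 gene lists (y axis, number of members in brackets), with a bar at the median of each list. All 17 glucocorticoid responsive genes lie below 0 around a median of -0.71, of which 2 are called, while neuronal markers and mitochondrially encoded genes lie within a narrow band at 0.

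For protein folding in the endoplasmic reticulum, a few genes were lower in h2 and none was higher. The unfolded protein response raises these genes when folding in the endoplasmic reticulum is under load. Of 25 genes measured, 2 fell, none rose and 23 did not pass, with a median of -0.12. These 2 are 8% of the list, against 0.534% of all genes lower in h2, and DESeq2 called 4 lower (0.837% of all genes). In 16 of the 25 all h2 libraries lay below all h1 libraries (7.88% of all genes did), and 15 had an unadjusted edgeR p under 0.05 (9.49%). Herpud1, part of the degradation machinery of the endoplasmic reticulum (chromosome 8 at 94386438 to 94395377), was at 58.8, 58.02 and 55.2 CPM in h1 and 45.9, 44.8 and 45.995 CPM in h2. It fell by 0.33 (SE 0.05, adjusted p = 0.00188), with the WT mean of 55.1 CPM nearer to h1. The disulfide isomerase gene Pdia4 was at 57.7, 55.5 and 52.6 CPM in h1 and 40.5, 42.4 and 43.9 CPM in h2, and fell by 0.38 (SE 0.07, adjusted p = 0.0218).

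Hspa5, which encodes the main chaperone BiP, was at 342, 353 and 318 CPM in h1 and 254, 250.2 and 265 CPM in h2. Its groups did not overlap, but edgeR did not call it (-0.40, SE 0.08, adjusted p = 0.0775), nor the transcription factor gene Xbp1 (-0.31, adjusted p = 0.0531). DESeq2 called both lower (adjusted p = 0.00269 and 0.000929). Hspa5, Xbp1 and the genes in the next sentence were chosen after their values were seen. Atf4 (0.13), Ddit3 (0.02) and Chac1 (0.12), of the branch that answers amino acid shortage, were not called. The mean deviation of the list was 0.09, 0.05 and 0.05 in the h1 libraries and -0.05, -0.07 and -0.07 in the h2 libraries, with WT at 0.16, 0.14 and 0.04. The endoplasmic reticulum stress element, CCAAT and CCACG with 9 bases between, was in a promoter window of 8 of 22 list genes and of 0.137% of all genes. None of the 89 called genes with a promoter window had it in this form, Herpud1 and Pdia4 included. Other forms or spacings of the element were not searched, so these promoters may hold one. The Herpud1 stretch printed above does hold the letters attgggccacg. There attgg, which is CCAAT read on the other strand, lies close to ccacg. The searched form is shown here for Hspa5, in a search added after the values were seen.
Hspa5, chr2:34772005-34772063, plus strand, element in capitals: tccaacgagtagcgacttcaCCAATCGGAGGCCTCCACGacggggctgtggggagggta
Herpud1 was called without any single library. Pdia4 lost its call in all leave-outs but that of h1 replicate 3, with adjusted p of 0.0512 to 0.165. Cytosolic heat shock chaperones had no call among 20 with edgeR or DESeq2, and 5 had an unadjusted edgeR p under 0.05. Their median was -0.04, with 17 of 20 below 0.

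Glial genes differed by small amounts. Of 20 myelin and oligodendrocyte genes, 2 fell with edgeR (10%, against 0.534% of all genes) and 18 did not pass. DESeq2 called 4 lower and 1 higher, against 0.837% and 0.176% of all genes. The median of the 20 was -0.12, and 12 had all h2 libraries below all h1 libraries, against 7.88% of all genes. Their summed level was 16376 to 16823 CPM in h1, 14372 to 15337 CPM in h2 and 12825 to 14483 CPM in WT. Mobp, a structural protein of myelin, was at 2121, 2193 and 1993 CPM in h1 and 1737, 1838 and 1790.5 CPM in h2. It fell by 0.23 (SE 0.04, adjusted p = 0.00696), yet its WT mean of 1649 CPM was below both groups. Mal, a proteolipid of myelin, fell by 0.21 (adjusted p = 0.0387). With edgeR Mbp was uncalled at -0.16 (adjusted p = 0.0575), and Opalin, another oligodendrocyte gene, was uncalled in the other direction at 0.32 (adjusted p = 0.0592), while DESeq2 called both (adjusted p = 0.0045 and 0.0253). Both were chosen after their values were seen. Of 12 markers of oligodendrocyte precursors, 2 fell with edgeR (16.7%, against 0.534% of all genes), and DESeq2 called 2 lower (0.837% of all genes). Of the 12, 11 were below 0, and 5 had all h2 libraries below all h1 libraries, against 7.88% of all genes. Olig2, the lineage transcription factor, went from 30.6 ± 1.04 CPM to 25.04 ± 1.58 CPM (SD, n = 3 each; -0.29, adjusted p = 0.0266). Pdgfra, the receptor that marks the precursors, went from 75.9 ± 0.659 CPM to 67.02 ± 0.888 CPM (SD, n = 3 each; -0.18, adjusted p = 0.0269). Pdgfra lost its call in all 6 leave-outs (adjusted p up to 0.103), Olig2 in all but that of h2 replicate 3 (up to 0.17), Mal in all but that of h1 replicate 3 (up to 0.253), and Mobp without h2 replicate 1 (0.0904).

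Sox9 and Sox2, transcription factors of astrocytes and of neural stem cells, rose. Sox9 (chromosome 11 at 112782224 to 112787760) was at 17.5, 15.4 and 17.2 CPM in h1 and 24.7, 25.5 and 21.4 CPM in h2 (log2 fold change 0.51, SE 0.09, adjusted p = 0.00378). Sox2 (chromosome 3 at 34650405 to 34652461) was at 23.7, 22.4 and 25.7 CPM in h1 and 36.1, 30.4 and 31.1 CPM in h2 (log2 fold change 0.43, SE 0.07, adjusted p = 0.00117), and it lies within the noncoding gene Sox2ot on the same strand. Of 16 astrocyte markers edgeR called Sox9 alone, where 0.188% of all genes rose. DESeq2 called Sox9 higher and Gjb6, Aldoc and Glul lower, against 0.176% and 0.837% of all genes. An unadjusted edgeR p was under 0.05 for 6 of the 16 (37.5%, against 9.49% of all genes). The median of the 16 was -0.06, and 6 of them had all h2 libraries below all h1 libraries, against 7.88% of all genes. With edgeR Sox2 was the only called gene of 14 for neurogenesis. Etnppl, an enzyme of ethanolamine lipid breakdown found in astrocytes, was at 50.4, 49.8 and 39.5 CPM in h1 and 31.1, 30.5 and 26.9 CPM in h2, and fell by 0.66 (SE 0.10, adjusted p = 0.00785). Glul, the glutamine synthetase of astrocytes, was uncalled with edgeR at -0.23 (adjusted p = 0.0621), called with DESeq2 (adjusted p = 0.000305), and was chosen after its values were seen. Sox9, Sox2 and Etnppl were each called without any single library.

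The other large falls came from genes of differing roles. Id1, an inhibitor of basic helix-loop-helix factors and a target of BMP signals (chromosome 2 at 152736251 to 152737410), was at 11.3, 13.6 and 11.9 CPM in h1 and 7.73, 7.20 and 7.81 CPM in h2. It fell by 0.70 (SE 0.10, adjusted p = 0.000472) and was the only called gene of 14 for ID proteins and the BMP response. Castor1, the arginine sensor of mTORC1, fell by 0.84 (adjusted p = 0.00959) and Prr5, a subunit of mTORC2, by 0.79 (adjusted p = 0.00841). Nrros, which holds latent TGF-beta on microglia, went from 7.46 ± 1.37 CPM to 4.05 ± 0.361 CPM (SD, n = 3 each), a fall by 0.88 (adjusted p = 0.00188), while none of 16 markers of microglia and complement was called with edgeR or DESeq2, and 3 had an unadjusted edgeR p under 0.05. Mc4r, the melanocortin receptor of the circuits that control feeding, was at 2.32, 3.56 and 3.24 CPM in h1 and 1.38, 1.06 and 2.07 CPM in h2 (-1.01, adjusted p = 0.0281). Fmo2, a flavin monooxygenase, fell by 1.03 (adjusted p = 0.0322), the membrane progestin receptor gene Paqr5 by 0.80 (adjusted p = 0.00828) and Cables1, a substrate of Cdk5 and Abl kinases, by 0.63 (adjusted p = 0.00352). Tcim (-0.87, adjusted p = 0.0467) and Rin3, which activates Rab5 (-0.73, adjusted p = 0.0312), complete the 15 largest falls.

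Further falls with a small adjusted p, chosen after their values were seen, were less large. Pnpla2, the triglyceride lipase ATGL, was at 21.9, 25.2 and 19.97 CPM in h1 and 14.1, 14.8 and 15.1 CPM in h2 (-0.60, adjusted p = 0.00107). Ucp2, a carrier of the inner mitochondrial membrane, was at 32.9, 35.9 and 32.7 CPM in h1 and 23.5, 24.8 and 24.6 CPM in h2 (-0.47, adjusted p = 0.000472), and its gene overlaps Dnajb13 on the opposite strand. Bcl2l1, which encodes the survival protein Bcl-xL, fell by 0.31 (adjusted p = 0.000623). The transcription factor gene Klf13, a relative of Klf9, fell by 0.34 (adjusted p = 0.00107), and Slc38a2, a transporter of neutral amino acids, by 0.25 (adjusted p = 0.00959). All h2 libraries were below all h1 libraries in each of these genes. Slc38a2 lost its call without h1 replicate 2 (0.0867) or h2 replicate 1 (0.0883), and Pnpla2, Ucp2, Bcl2l1 and Klf13 kept it in every leave-out.

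The remaining large rises belonged to none of the lists. Gbp4, a GTPase induced by interferon, was at 2.32, 0.984 and 1.85 CPM in h1 and 3.80, 4.07 and 3.16 CPM in h2 (log2 fold change 1.09, SE 0.21, adjusted p = 0.00696). Its annotation overlaps Gbp8 and Gbp9 on the same strand, so the estimated counts may be shared among them. None of 18 interferon stimulated genes was called with edgeR or DESeq2, with 3 at an unadjusted edgeR p under 0.05. Of these 18, 16 were above 0, as were 8414 of all 16493 genes. Their summed level was 153 to 162 CPM in h1, 168 to 171 CPM in h2 and 173 to 185 CPM in WT. Lrrc32, which binds latent TGF-beta at the cell surface, was at 3.76, 2.53 and 2.73 CPM in h1 and 6.08, 4.92 and 5.06 CPM in h2 (0.82, adjusted p = 0.00537). Mmp14, a membrane-bound metalloproteinase, rose by 0.55 (adjusted p = 0.00602) and Bche, butyrylcholinesterase, by 0.49 (adjusted p = 0.00537). Cyyr1 (0.42, adjusted p = 0.0248) and Aif1l (0.39, adjusted p = 0.0281) rose least of the 15. Among the genes of the preceding large falls and of these rises, Id1, Nrros, Cables1 and Bche were called without any single library. Lrrc32 and Mmp14 lost the call without h1 replicate 2 (adjusted p = 0.0626 and 0.0712), and Gbp4 without that library (0.066) or h2 replicate 2 (0.0607). Castor1, Prr5 and Paqr5 lost it in 2 leave-outs each, with adjusted p of at most 0.096. Mc4r, Fmo2, Tcim, Rin3, Cyyr1 and Aif1l lost it in 4 or 5 leave-outs each, with adjusted p of at most 0.249.

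Immediate early genes, which neurons switch on within minutes of activity, mostly had positive log2 fold changes, and none was called with edgeR. Of 24 measured, 22 were above 0, as were 8414 of all 16493 genes, and the median was 0.28. In 4 all h2 libraries lay above all h1 libraries and in 1 below, against 7.57% and 7.88% of all genes. An unadjusted edgeR p was under 0.05 for 11 (9.49% of all genes). DESeq2 called 2 higher and 1 lower, against 0.176% and 0.837% of all genes. Npas4, an activity-dependent transcription factor, was at 6.72, 5.999 and 5.09 CPM in h1 and 14.5, 21.5 and 11.4 CPM in h2 (1.43, SE 0.27, adjusted p = 0.0624). It was chosen after its values were seen and passed without h2 replicate 2 (adjusted p = 0.0254) or h2 replicate 3 (0.0172). Arc, which acts at synapses, was at 64.1, 48.5 and 45.5 CPM in h1 and 59.9, 121 and 115 CPM in h2 (0.94, adjusted p = 0.24). The h2 libraries were split in Arc, with replicate 1 inside the range of h1. Egr1, at 141, 94.8 and 114 CPM in h1 and 105, 175 and 151 CPM in h2, showed the same split (0.31, adjusted p = 0.734). Over the 24 genes the mean deviation was 0.00, -0.31 and -0.13 in h1 and -0.24, 0.38 and 0.30 in h2, so the groups overlapped.

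**Figure D4:**
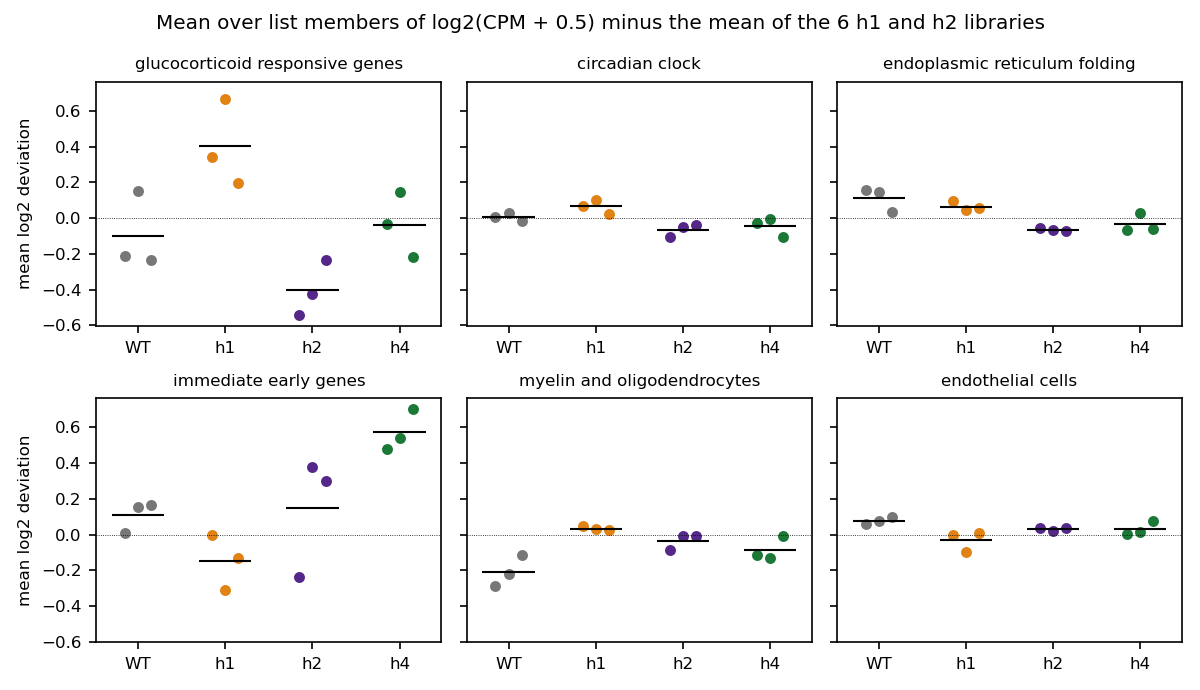
Mean over the members of 6 gene lists of log2(CPM + 0.5) minus the average of the 6 h1 and h2 libraries (y axis), for each library of the 4 genotypes (x axis), with a bar at the mean of each group. The h1 and h2 points do not overlap for the glucocorticoid, clock, endoplasmic reticulum, myelin and endothelial lists, and overlap for immediate early genes, where h2 replicate 1 stands at -0.24 below the other h2 libraries.

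Lists for neurons and brain regions held few calls or none. No member was called in the lists for layer 4 and upper cortical layers (14 measured, median 0.01), deep layers (14), thalamus (14), striatum (14), hippocampus (12), cerebellum (18), interneurons (16), glutamate receptors (22), GABA-A receptors (15) or presynaptic release (20). The medians of these lists lay between -0.07 and 0.04. Kcnn2, a small-conductance calcium-activated potassium channel, was the only called gene of 24 potassium channels. It went from 39.1 ± 2.21 CPM to 30.4 ± 1.80 CPM (SD, n = 3 each; -0.36, adjusted p = 0.0121), and lost its call without h1 replicate 2 (adjusted p = 0.114), h2 replicate 1 (0.0916) or h2 replicate 2 (0.0581). Of 12 hypothalamic neuropeptide genes 11 were below 0 with none called, and their median was -0.19. Lists for meningeal fibroblasts (18 measured, median 0.13), choroid plexus (18, 0.07), ependymal cells (12, 0.06), MHC class I (13, 0.09), retinoid metabolism (18, 0.04), cholesterol synthesis (20, 0.00), Hox genes (16, 0.09) and pigmentation (10, 0.03) held no call. Over the 451 distinct genes of the 30 lists without a call, 51 (11.3%) had an unadjusted edgeR p under 0.05, near the 9.49% of all genes, and DESeq2 called 3, all of them immediate early genes. The share differed between these lists. It was 45.8% for immediate early genes, 33.3% for retinoid metabolism, 25% for heat shock chaperones and 22.2% for meningeal fibroblasts, and 0 for upper cortical layers, striatum and presynaptic release. The summed meningeal level was 346 to 377 CPM in h1 and 390 to 404 CPM in h2.

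Near the Rorb locus, 3 of 101 genes tested within 10 Mb were called, or 2.97%, against 0.722% of all genes, and all 3 fell. They were Psat1, Klf9 and Cdc37l1. Within 20 Mb the count was 5 of 355 (1.41%), with Sgms1 lower and Cdc42ep2 higher in addition. Psat1, an enzyme of serine synthesis (chromosome 19 at 15904678 to 15947337), was at 145, 148 and 141 CPM in h1 and 124, 129 and 126 CPM in h2 (-0.19, adjusted p = 0.00378), with a pseudogene overlapping it on the opposite strand. Cdc37l1, a co-chaperone of Hsp90, fell by 0.23 (adjusted p = 0.0348), and its gene overlaps Ak3 on the opposite strand. Cdc42ep2, an effector of Cdc42, rose by 0.38 (adjusted p = 0.0241). Both were chosen for their position, and each lost its call in 4 of the 6 leave-outs (adjusted p up to 0.283 and 0.191). Psat1 kept its call in every leave-out, and Klf9 did not, as given above. Around Tyr, where the h2 background carries its mutation, no gene of 122 within 10 Mb was called with edgeR, and 2 of 252 (0.794%) within 20 Mb, Ucp2 and Lrrc32.

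**Figure D5:**
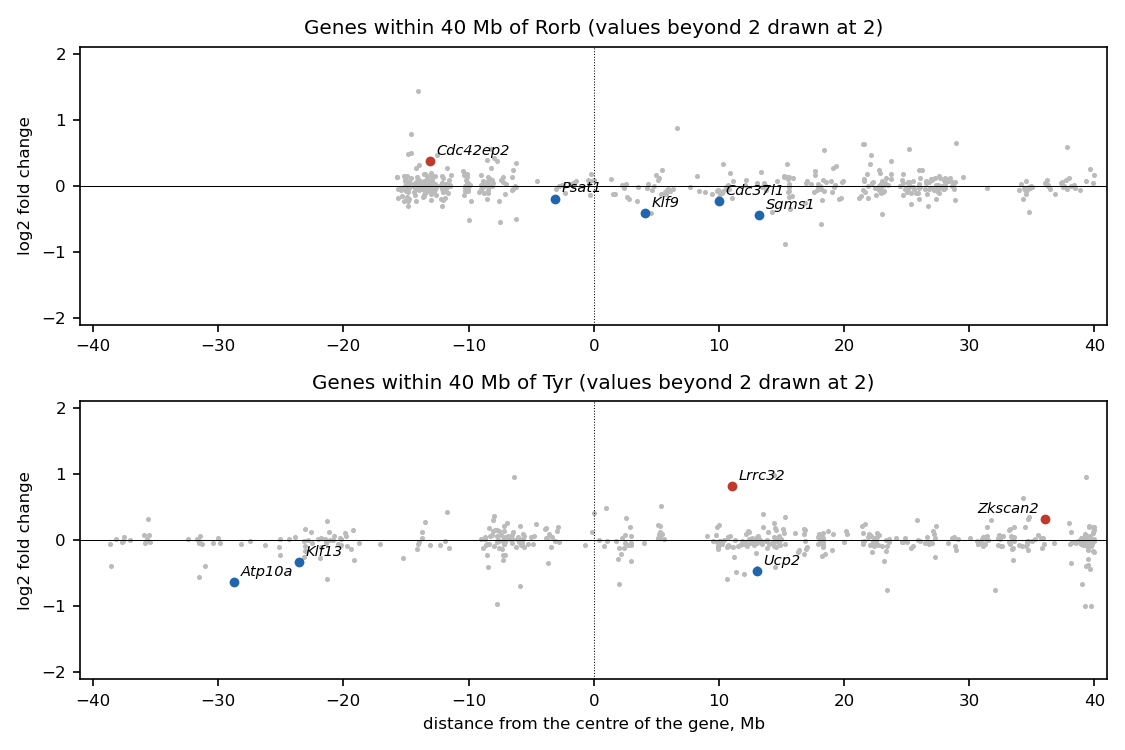
Log2 fold change of h2 minus h1 (y axis) of genes tested within 40 Mb of Rorb (top) and Tyr (bottom) against the distance from the centre of that gene in Mb (x axis), with called genes in red (higher) or blue (lower). Psat1, Klf9, Cdc37l1 and Sgms1 are lower on both sides of Rorb, and no called gene lies within 10 Mb of Tyr.

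The WT and Rorbh4/h4 libraries entered the fit but not the contrast, and their mean levels mostly fell between those of the 2 alleles. For 29 of the 31 genes higher in h2 and 74 of the 88 lower, the WT mean lay between the h1 and h2 means, and the h4 mean did so for 29 and 82. Over all 119, the WT mean was nearer on the log scale to h1 for 15 of the genes higher in h2 and 45 of those lower, and nearer to h2 for 16 and 43. These counts describe genes chosen for a difference between h1 and h2 and carry no test.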

How the data were processed

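Whole brains of 3 mice per genotype were sequenced as polyadenylated RNA, 1 library per mouse. Per the labels' protocols, the TruSeq RNA v2 kit was used, which does not mark the strand, with paired-end reads. The authors deposited gene-level tables, 1 for each library. Reads were aligned and quantified with Bowtie2 2.2.0 and RSEM 1.2.12, per the submitters' processing notes. The sources used here do not name their genome build or annotation. The deposited expected counts are estimated read pairs per gene, so pairs with several possible genes are split between these. The deposited TPM values entered 1 alternative, and the deposited FPKM values were not used. The tables also give an estimated length per gene.

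Expected counts were rounded to whole numbers. Per the identifiers, 37607 of 38924 genes were found in GENCODE M21 on GRCm38, which gave symbols and positions, and promoter windows came from RefSeq (GRCm38.p6). The quasi-likelihood test of edgeR 4.0.16 in R 4.3.3 was fitted to all 12 libraries with 1 mean per genotype, TMM scaling and the low-count filter of edgeR, which left 16493 genes. Calls are genes whose p, after Benjamini-Hochberg adjustment over all of them, was under 0.05, and adjusted p values are from edgeR unless another tool is named. Exact permutation tests were 2-sided. CPM is the expected count relative to the library total. The common biological coefficient of variation was 0.0531. On simulated counts with known changes for this comparison, over 16351 genes, the same steps recovered 56% of 1.25-fold, 76% of 1.5-fold, 88% of 2-fold and 90% of 3-fold changes, and 16 of 171 calls (9.36%) were false, above the nominal 5%.

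The comparison, the 43 gene lists (702 entries) and the naming rule were chosen with earlier results of these data known. The rule named Rorb, Tyr, Xist and Ddx3y, then, of the called genes that averaged 1 CPM or more without overlap between groups, the 15 with the largest rise and the 15 with the largest fall, up to 4 called members per list, or up to 2 of highest CPM where none was called. Gm, Rik and unnamed genes were counted only. Of 7 promoter motifs searched on both strands, those printed, the motif searches for the folding and glucocorticoid lists, and all genes outside the rule were chosen after the values were seen. Alternatives were DESeq2 1.42.0, limma 3.58.1 on log2(TPM + 0.5), 2 other scalings, 2 other low-count filters, a fit of the 6 libraries alone, a replicate block, Xist as a covariate and leaving out each library.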

Additional observations from a re-analysis of the deposited data

How the results depend on the processing

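The number of calls depended on the processing, and no called gene described above changed direction in any of the 15 alternatives. Against 119 calls, there were 290 without a filter on low counts, 193 from the 6 libraries alone, 204 with the replicate number as a block in the fit, and 4 with limma on TPM. DESeq2 gave 167, of which 103 were among the 119. Leaving out 1 library gave 44 to 120 calls, with 45 without h1 replicate 2, 44 without h2 replicate 1 and 66 without h2 replicate 2. Leaving out h1 replicate 2 ended 31 of the 55 calls described, and leaving out h2 replicate 1, the shallowest library, ended 27, while 20 of the 55 were kept whichever library was left out. DESeq2 did not call Fmo2, Tcim, Rin3, Heyl or Aif1l. Only 4 genes were called in all 15 alternatives, of which Cldn5 was higher and Id1, Etnppl and Sgms1 lower. The log2 fold change of Rorb turned negative without h1 replicate 3 (-0.0159) or h2 replicate 2 (-0.00244), in a leave-out range of -0.0159 to 0.286, and that of Tyr stayed positive. The same-numbered h1 and h2 libraries did not deviate together (correlations of -0.14, -0.10 and 0.02). With 3 libraries per group these values cannot settle whether the numbers pair the mice, and the sources used here name no pairing. The block fit with its 204 calls therefore rests on a shared number only. The depth of h2 replicate 1, at 14513825 expected counts, limits the precision of genes of low count.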
